A study of Mus musculus with 6 samples.

Results

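Notch signalling was examined through 10 genes: the receptors Notch1 and Notch3, the ligands Dll1, Dll3, Dll4 and Jag1, the receptor-modifying enzyme Lfng, and the target genes Hes1, Hey1 and Hey2. Their probe sets were those whose platform annotation carries exactly 1 of these symbols. This gave 16 of the 45037 probe sets, and all 10 genes had at least 1. Expression had been measured on 6 Affymetrix arrays, 3 per group. Induced cells came from the mouse embryonic stem (ES) cell line ER71 A17C, of 129P2/Ola background, which holds a cassette (ER71 A2Lox.cre) that expresses Etv2 when doxycycline is present. They received doxycycline at 0.5 microg/ml from day 3 of differentiation for 12 hours. Control cells were the same line with the same cassette and, by the series' design text, no drug, although the treatment field gives the doxycycline text for every sample. Both groups were grown as embryoid bodies in hanging drops and sorted at day 3.5 for Flk1, the VEGF receptor encoded by Kdr. The experiment was done in triplicate, but the labels do not say whether replicates were separate cultures, so p-values below cover the spread of these 6 samples only, and part of it may be technical. Effects of the drug itself and of Etv2 cannot be told apart in this design, and only 1 line was used.

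Notch receptors are cleaved when a ligand on a neighbouring cell binds them. The freed intracellular part joins the DNA-binding protein RBPJ and switches on target genes, among them the Hes and Hey repressors. In early mesoderm the pathway sets up the segmentation clock of the presomitic mesoderm, and in blood vessels it takes part in the choice between arterial and other endothelial fates. Etv2, the induced factor, belongs to the ETS family of DNA-binding proteins, and embryos without it form no proper vessels or blood. The comparison therefore asks whether Notch genes differ in Flk1-positive cells after a short pulse of Etv2.

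Promoter sequence was available in the RefSeq set (GRCm38.p6) for 8 of the 10 genes, in 9 windows that run from 250 bases before to 50 bases after a start site. The target genes Hes1 and Hey1 had no window and were not searched. They were searched on both strands for the RBPJ core TGGGAA, the ETS-type letters CCGGAA and the E-box CACGTG bound by many basic helix-loop-helix factors. The shorter GGAA core of ETS factors, which TGGGAA also holds, was not counted. The RBPJ core was in 2 of the 9 windows, those of Hey2 and Lfng, where 25.6% of 32851 promoter windows of the same length hold it. CCGGAA was in 0 of the 9, against 14.9% of all windows, and the E-box was in 1, that of Lfng, against 7.15%. These letter matches describe the windows and show no binding. The windows of Lfng and Hey2 are printed because they hold the RBPJ letters, and that of Dll3 because its RNA followed Kdr most closely among the members over the arrays. Capitals mark TGGGAA or its reverse complement TTCCCA. Lfng lies at chr5:140607091-140607390 on the plus strand, Hey2 at chr10:30842734-30843033 on the minus strand and Dll3 at chr7:28301736-28302035 on the minus strand.
Lfng: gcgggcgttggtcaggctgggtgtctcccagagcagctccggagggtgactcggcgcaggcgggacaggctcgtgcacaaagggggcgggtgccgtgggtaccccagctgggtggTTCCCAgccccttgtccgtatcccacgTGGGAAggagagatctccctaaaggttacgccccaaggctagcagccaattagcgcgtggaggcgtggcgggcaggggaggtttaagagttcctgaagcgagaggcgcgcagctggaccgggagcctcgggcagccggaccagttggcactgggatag
Hey2: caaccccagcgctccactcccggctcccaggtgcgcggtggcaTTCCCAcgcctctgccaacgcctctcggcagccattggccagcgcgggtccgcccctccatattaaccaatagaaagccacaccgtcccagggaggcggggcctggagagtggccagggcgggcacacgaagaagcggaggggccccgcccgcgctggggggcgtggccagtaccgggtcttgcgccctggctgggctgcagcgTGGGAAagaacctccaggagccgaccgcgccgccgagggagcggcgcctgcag
Dll3: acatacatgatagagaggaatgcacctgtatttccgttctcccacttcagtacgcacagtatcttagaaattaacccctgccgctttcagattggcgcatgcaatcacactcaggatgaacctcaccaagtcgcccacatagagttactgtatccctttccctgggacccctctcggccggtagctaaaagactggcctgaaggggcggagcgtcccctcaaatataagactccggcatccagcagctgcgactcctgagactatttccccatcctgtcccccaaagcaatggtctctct
In Lfng the RBPJ letters begin at positions -135 and -108 from the start site, and the match at -108 shares 2 bases with the E-box that begins at -112. In Hey2 they begin at -207 and, across the start site itself, at -3.

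The values are log2 levels from RMA, the authors' normalisation, and differences between groups are log2 fold changes. Levels of different probe sets cannot be set against each other. Array medians were 7.34 to 7.40, and induced 2 had the highest median and the lowest limma array weight (0.32). Etv2 stood at 13.27, 13.28 and 13.36 in induced arrays 1, 2 and 3, against 9.92, 8.59 and 10.71 in control arrays 1, 2 and 3, so every induced array lay above every control. The Etv2 difference of 3.56 ± 0.46 (SE) did not pass adjustment in limma (adjusted p = 1.0). Kdr, the gene of the sorting marker, was at 9.56, 9.36 and 10.52 in the induced arrays, against 10.02, 8.40 and 10.97 in the controls. Control 2 was thus the lowest array for Kdr and control 3 the highest. Early mesoderm markers (5 of 6 listed were measured, Kdr among them) averaged 11.63 to 12.32 in induced arrays and 11.22 to 12.63 in controls. Control 2 was lowest there too, in an average that includes Kdr. The average of the 6 pluripotency markers ran the other way, at 11.89 to 12.16 in induced arrays and 11.53 to 12.45 in controls. Control 2 was highest in that average, although it was the lowest array for 1 of the 6, Tdgf1. The 7 endothelial markers averaged 6.81 to 7.04 in induced arrays and 6.73 to 6.87 in controls. Of these 7, chosen for their role, Cdh5, which encodes VE-cadherin, averaged 6.44 in induced arrays and 6.25 in controls, and the angiopoietin receptor gene Tek 6.31 and 6.20 in the same order, where the lower quartile of an array was 5.96 to 6.06. The brightest of the 7, Egfl7 and Esam, averaged 10.15 and 8.08 in induced arrays, against 10.16 and 8.01 in controls. The part of these cell type markers in the results below was not tested, and in such bulk samples fewer cells of a type cannot be told apart from less RNA per cell.

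None of the 10 Notch genes passed the test between the groups. In limma, with Benjamini-Hochberg adjustment over all 45037 probe sets, 0 of the 16 member probe sets passed an adjusted p of 0.05, where 1 probe set in all did (0.00222%), that of Hprt. With the replicate number as a block, 0 probe sets passed (0%). At an unadjusted p under 0.05 there were likewise 0 members in both fits, where 0.646% of all probe sets were higher and 0.886% lower without the block, and 0.995% and 1.89% with it. The smallest unadjusted p of a member was 0.234 without the block and 0.0843 with it, both in limma across all probe sets. Log2 fold changes of the members ran from -0.29 to 0.096, with 6 positive and 10 negative and a median of -0.11, where over all probe sets 51.2% were positive and the median was 0.0029. Groups overlapped in all 16 members, while induced arrays lay wholly below the controls in 3.7% of all probe sets and wholly above in 2.72%.

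**Figure D1:**
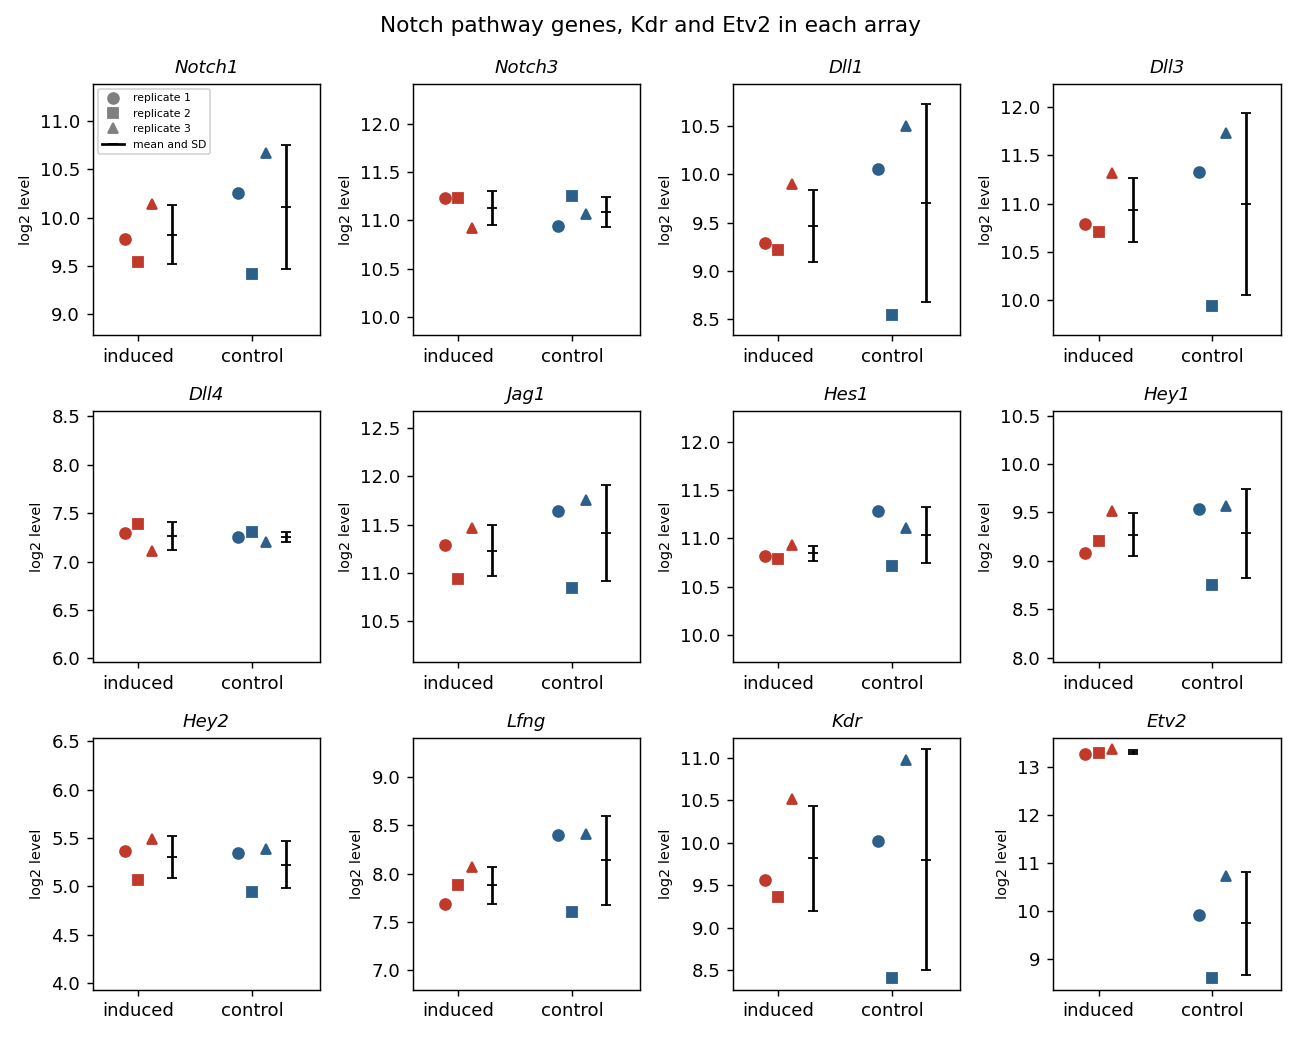
Log2 level of the brightest probe set of each Notch pathway gene, and of Kdr and Etv2, in the 3 induced arrays (left, red) and the 3 control arrays (right, blue). Symbols give the replicate number and bars the mean and SD; the 2 groups overlap for every gene except Etv2, and control 2 is the lowest array for Notch1, Dll1, Dll3, Jag1, Hes1, Hey1, Hey2 and Lfng.

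Of the receptors, Notch1 was probed by 2 sets that moved together over the arrays (r = 0.87). The brighter one read 9.78, 9.54 and 10.15 in induced arrays 1, 2 and 3, against 10.25, 9.42 and 10.67 in control arrays 1, 2 and 3. Induced arrays thus sat inside the control range, above control 2 and below control 3. Its log2 fold change was -0.29 ± 0.31 (SE, n = 3 per group), with a 95% interval of -1.01 to 0.42 (limma adjusted p = 1.0). The dimmer Notch1 set averaged 8.53 ± 0.11 in induced arrays and 8.78 ± 0.59 in controls (SD, n = 3 each), a log2 fold change of -0.25 ± 0.26 (SE).

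Notch3, a receptor best known from smooth muscle of arteries, behaved unlike Notch1. Its brighter set, whose suffix marks probes that can match more than 1 transcript, was at 11.23, 11.23 and 10.93 in induced arrays and 10.94, 11.25 and 11.07 in controls. Here control 2 was the highest array and induced 3 the lowest, and all 6 values lay within 0.33. The log2 fold change was 0.040 ± 0.12 (SE), with a 95% interval of -0.24 to 0.32. The dimmer set averaged 8.30 ± 0.088 in induced arrays and 8.56 ± 0.44 in controls (SD, n = 3 each). The 2 sets correlated at r = 0.36 over the arrays and differed in the sign of their fold changes, the dimmer one being at -0.26 ± 0.20 (SE).

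Among the ligands, Dll1, which activates Notch in the presomitic mesoderm, varied most. Its set read 9.29, 9.21 and 9.90 in induced arrays 1, 2 and 3, against 10.05, 8.55 and 10.50 in control arrays 1, 2 and 3. The control values were spread over 1.95 log2 units and enclosed all 3 induced values, which spanned 0.68. The log2 fold change of -0.24 ± 0.46 (SE) had a 95% interval of -1.32 to 0.85, so that a sizeable fall and a sizeable rise both lie within it.

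Dll3, a ligand that acts mainly inside the cell that makes it and does not activate Notch on neighbours, showed the same layout. It was at 10.79, 10.71 and 11.31 in induced arrays, against 11.33, 9.94 and 11.73 in controls. Again control 2 was lowest and control 3 highest, with the induced arrays between them. The log2 fold change was -0.063 ± 0.43 (SE), with a 95% interval of -1.06 to 0.93.

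Jag1, a ligand of the other family, Jagged, had 3 probe sets. The brightest was at 11.29, 10.94 and 11.46 in induced arrays and 11.64, 10.85 and 11.75 in controls. It shared the layout of Dll1, with control 2 lowest, and its log2 fold change was -0.18 ± 0.25 (SE). The middle set gave -0.16 ± 0.19 (SE) and followed the brightest closely (r = 0.98). The dimmest averaged 8.56 ± 0.15 in induced arrays and 8.48 ± 0.15 in controls (SD, n = 3 each). That set correlated with the brighter ones at only 0.28 and 0.33 and differed from them in the sign of its fold change, 0.081 ± 0.11 (SE).

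Dll4, the ligand of arterial and sprouting endothelial cells, was close to even across the arrays. Its brighter set lay at 7.29, 7.39 and 7.11 in induced arrays and 7.26, 7.30 and 7.20 in controls, and its other set averaged 6.28 ± 0.24 in induced arrays and 6.18 ± 0.11 in controls (SD, n = 3 each). The brighter set's 95% interval for the log2 fold change, -0.20 to 0.23, was the narrowest of the 16. The values do not show whether Dll4 was above background.

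Lfng, a Golgi enzyme that adds a sugar to Notch and so alters its response to ligands, was read by 2 sets that disagreed (r = -0.19). The brighter was at 7.69, 7.88 and 8.07 in induced arrays, against 8.40, 7.60 and 8.41 in controls. Controls 1 and 3 exceeded all induced arrays, and control 2 was below them all. Its log2 fold change was -0.26 ± 0.22 (SE), with a 95% interval of -0.77 to 0.26. The dimmer set stood at 6.63, 7.33 and 6.72 in induced arrays and 6.65, 6.88 and 6.86 in controls, so that induced 2, the array with the highest median, was its highest value.

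The target genes encode transcriptional repressors. Hes1, which oscillates in many embryonic cells, was at 10.81, 10.79 and 10.94 in induced arrays and 11.28, 10.71 and 11.11 in controls. The induced arrays spanned 0.14 log2 units and the controls 0.57. Hes1 differed by -0.19 ± 0.14 (SE) on the log2 scale, with a 95% interval of -0.52 to 0.15.

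Hey1, a direct Notch target in mesoderm and endothelium, lay at 9.08, 9.20 and 9.52 in induced arrays and 9.54, 8.75 and 9.56 in controls. Its log2 fold change was -0.017 ± 0.23 (SE). Hey2, a repressor of arterial and heart cells, read 5.37, 5.06 and 5.48 in induced arrays, against 5.35, 4.94 and 5.39 in controls, below the lower quartile of every array. It was the 1 member higher in induced cells at all 3 replicate numbers, by 0.025, 0.12 and 0.094, where 9.53% of all probe sets were. The log2 fold change of Hey2 was 0.080 ± 0.15 (SE), and without control 2 it was -0.062.

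**Figure D2:**
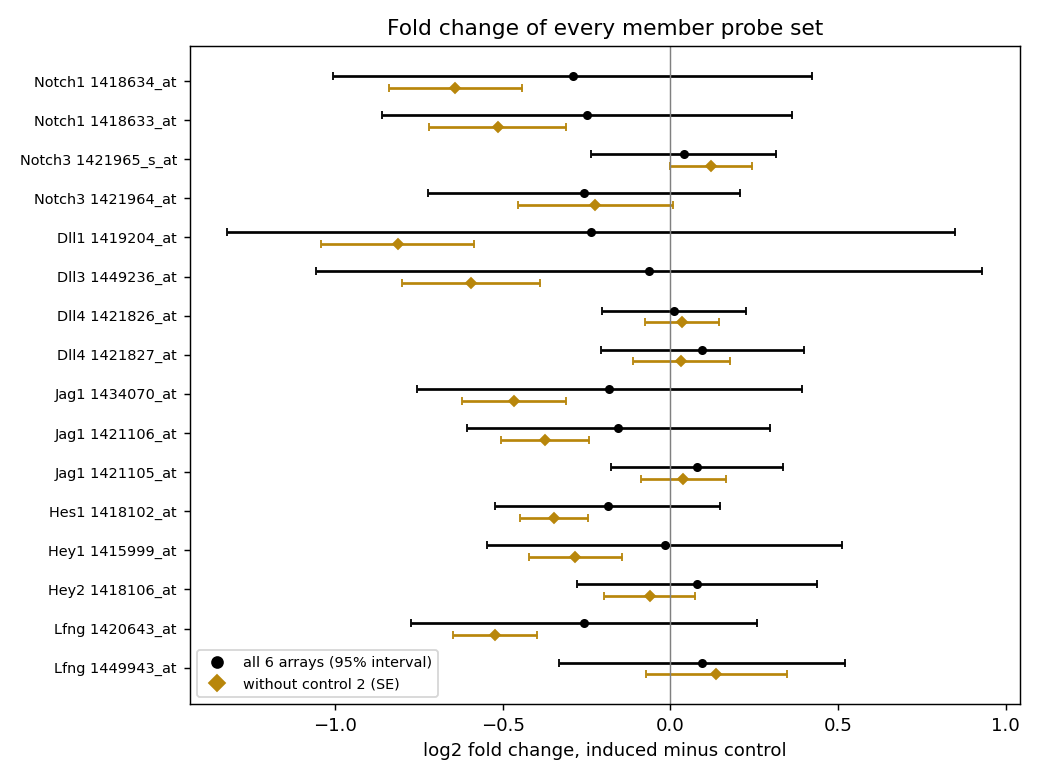
Log2 fold change of each of the 16 member probe sets, induced minus control. Black points and 95% intervals are from all 6 arrays, and every interval includes 0; gold points and SE bars leave out control 2, which moves Dll1 to -0.81 and Notch1 to -0.64.

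Replicate numbers 1, 2 and 3 occur in both groups, and differences taken by number had a recurring layout. For Dll1 the induced array differed from its control by -0.77 at number 1, by 0.67 at number 2 and by -0.60 at number 3. For Dll3 the differences were -0.54, 0.77 and -0.42, and for Notch1 -0.48, 0.13 and -0.53. Lower at numbers 1 and 3 and higher at number 2 was the layout of 11 of the 16 member probe sets, in 8 genes, against 18.1% of all probe sets. The 11 include the dimmer Dll4 and Lfng sets, in which induced 2, the array of lowest weight, was the highest value (6.55 and 7.33). The brighter Dll4 set did not have this layout. Many of the 11 sets moved together over the arrays, so their count is not 11 separate results. Kdr had the layout too, at -0.46, 0.96 and -0.45. Lower at all 3 numbers was seen for 0 members, against 13.3% of all probe sets.

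**Figure D3:**
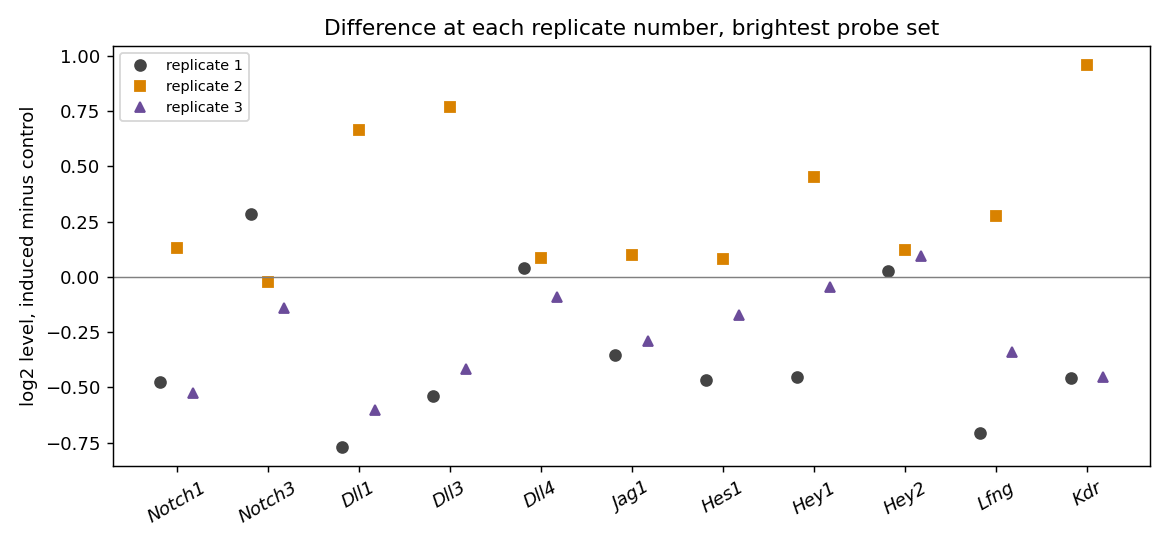
Induced minus control log2 level at each replicate number, for the brightest probe set of each member and for Kdr. Replicate 2 (orange squares) lies above 0 for Notch1, Dll1, Dll3, Jag1, Hes1, Hey1, Lfng and Kdr, where replicates 1 and 3 lie below it.

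Control 2 set the size of several differences. Without it, 8 of the 16 member probe sets were lower in induced cells at an unadjusted p under 0.05 in limma, where 1.93% of all probe sets were. No member was higher (2.04% of all probe sets), and 0 members passed adjustment, as did 0% of all probe sets (smallest adjusted p = 0.993). The 8 were both Notch1 sets, Dll1, Dll3, the 2 brighter Jag1 sets, Hes1 and the brighter Lfng set. Control 2 was the lowest array in each of these 8, so leaving it out lowers their fold changes by construction. The 8 sets also moved together over the arrays, so their count is not 8 separate results. Dll1 was then at a log2 fold change of -0.81 ± 0.23 (SE), Notch1 at -0.64 ± 0.20, Dll3 at -0.59 ± 0.20 and Lfng at -0.52 ± 0.13. Hes1 moved to -0.35 ± 0.10 and the brightest Jag1 set to -0.47 ± 0.16. Kdr itself then differed by -0.68 ± 0.39. Control 3 acted the other way, and without it the brighter Notch1 set stood at -0.012, the brightest Jag1 set at -0.012, Hes1 at -0.15, Lfng at -0.12, Dll1 at 0.16 and Dll3 at 0.30. Without both samples of replicate 2, 5 members were lower at an unadjusted p under 0.05 (1.63% of all probe sets), and without control 3 the count was 0 (0.817%). Leaving out induced 2 instead gave 0 members at that level (0.646% of all probe sets were lower and 0.739% higher), with Dll1 at -0.11 ± 0.57.

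Most members followed Kdr from array to array. Over the 6 arrays Dll3 correlated with Kdr at Pearson r = 0.98 (exact permutation p = 0.00278 over 720 pairings) and Spearman rho = 0.94 (exact permutation p = 0.0167). For Dll1 r was 0.97 (exact permutation p = 0.00556) and for Hey1 0.93 (0.00833). The middle Jag1 set was at 0.93 and the brightest at 0.90, and the brighter Notch1 set at 0.93. In all, 9 of the 16 probe sets, from 7 genes, correlated positively at an unadjusted exact p under 0.05, against 4.31% of all other probe sets. No member did so negatively, against 5.26%. In 6 members r was at least 0.9, against 1.76%. Many of these sets also moved together over the arrays, as Dll1 and Dll3 did (r = 0.99), so neither count is one of separate results. The members were also chosen with earlier results of these data known. After Benjamini-Hochberg adjustment over 45036 relations, 0 passed (0% of all), and the members' adjusted p ran from 0.268 to 0.993 for r and from 0.348 to 0.986 for rho. The members that missed that level were Hes1 (r = 0.70), both Notch3 sets (-0.73 and 0.11), both Dll4 sets (-0.70 and 0.19), the dimmest Jag1 set (0.34) and the dimmer Lfng set (-0.28). By rank, the brighter Dll4 set ran against Kdr (rho = -0.89, exact permutation p = 0.0333, adjusted 0.409).

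Between the extremes the relation was weaker in all 9 sets that had correlated with Kdr, but it kept its sign. Control 2 and control 3, the arrays farthest from the median Kdr level, were left out, and no test was made over the other 4 arrays. There r was 0.91 for Dll3, 0.84 for Dll1, 0.85 for the brighter Notch1 set and 0.83 for Hey1. It was 0.84 for the middle and 0.74 for the brightest Jag1 set, and 0.82 for Hey2. For the brighter Lfng set it was 0.56 and for the dimmer Notch1 set 0.43, so these 2 relations rested largely on control 2 and control 3. In 6 of the 16 member probe sets, from 5 genes (Notch1, Dll1, Dll3, Jag1 and Hey2), the arrays of both groups stood in the order of Kdr, which was 2, 1, 3 from low to high. That order held in both groups for 6.17% of all probe sets, and these 6 sets are among the 9 that correlated with Kdr. Over the same arrays 5 of the 6 pluripotency markers ran against Kdr, from Nanog at r = -0.99 to Pou5f1 at -0.79, and Tdgf1 ran with it at 0.96. The other 4 early mesoderm markers ran with Kdr, from Eomes at 0.88 to Mixl1 at 0.94. Of the 6 endoderm markers, Sox17 (0.99) and Cer1 (0.93) also ran with Kdr, and r was positive in 3 of the 6. Of the 7 endothelial markers, Egfl7 (-0.97) and Tek (-0.83) ran against Kdr, and r was positive in 2 of the 7. Replicate number and group leave too few arrays for a correlation within either.

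**Figure D4:**
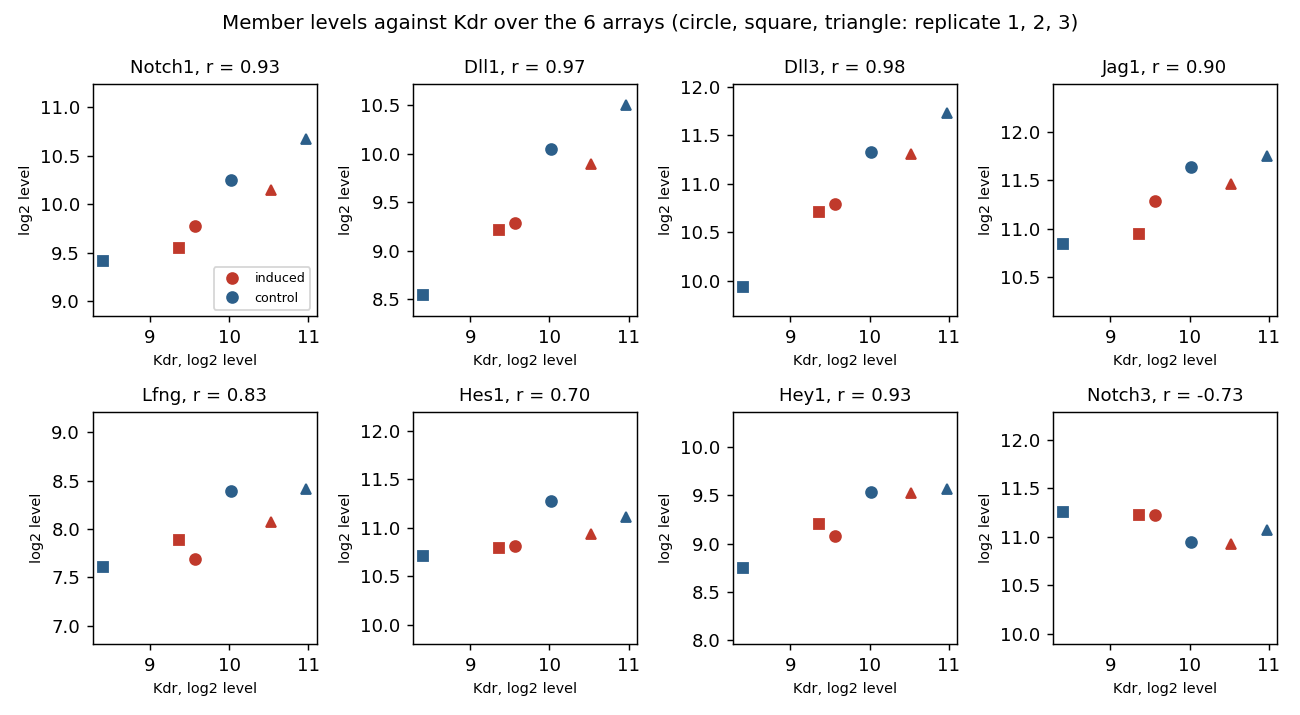
Log2 level of 8 members (brightest probe set) against that of Kdr in the 6 arrays, induced in red and control in blue, with Pearson r in each title. Points of both groups tend to rise with Kdr for Dll1, Dll3, Jag1, Notch1 and Hey1, while Notch3 falls slightly as Kdr rises. For Notch1 the groups do not share 1 line, as the induced points lie below the controls at a like Kdr level.

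With the Kdr level as a covariate, the fold changes hardly moved, and the errors shrank for the members that followed Kdr. Both were to be foreseen, as Kdr itself differed by only 0.016 ± 0.61 (SE) and these members already correlated with it. Kdr was also measured after the induction. The brighter Notch1 set stood at -0.30 ± 0.080 (SE), the only member at an unadjusted p under 0.05 in limma (adjusted p = 0.999). At that level 1.68% of all probe sets were lower and 1.19% higher. Dll1 was at -0.25 ± 0.11 and the brighter Lfng set at -0.26 ± 0.11, just short of it. Dll3 stayed at -0.074 ± 0.11, Hey1 at -0.022 ± 0.11 and Hes1 at -0.19 ± 0.11. In that fit Etv2 (limma adjusted p = 0.00725) and Hprt were called, 0.00444% of all probe sets, and 0 members were.

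The induced arrays were more alike than the controls for most members. The SD of the controls exceeded that of the induced arrays in 11 of the 16 probe sets, against 47% of all probe sets. Dll1 had an SD of 0.38 in induced arrays and 1.02 in controls, Dll3 0.33 and 0.94, and Hes1 0.077 and 0.29, in the same order. The same was true of Kdr, at 0.62 and 1.30. These spreads rest on 3 arrays each and were not tested.

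Some other genes ran very like Dll3, Dll1 and Notch1 over the arrays. Of 351 genes that were at or above the median level and spanned at least 1 log2 unit, the nearest to Dll3 were Tbx6 (Pearson r = 0.997 over 6 arrays), a T-box factor of the presomitic mesoderm, Aplnr (0.997), the apelin receptor gene, and Lhx1 (0.995), a LIM homeobox gene. Tbx6 read 8.15, 8.06 and 8.84 in induced arrays and 8.80, 7.30 and 9.15 in controls. The nearest to Dll1 were Grrp1 (0.998), Lhx1os (0.996) and Smad1 (0.995), a BMP effector. The nearest to Notch1 were Gpc3 (0.995), a cell-surface glypican, Pcdh7 (0.994), a protocadherin, and Efna3 (0.994), an ephrin. These likenesses were picked from many genes over 6 arrays, and carry no p.

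Of the wider pathway and its settings, 67 further genes in 7 lists were considered, and 65 were measured. None passed the adjusted threshold (0.00222% of all probe sets did). At an unadjusted p under 0.05 there was 1 higher, Tle1, a co-repressor recruited by Hes proteins, with a difference of 0.27 ± 0.076 (SE) in log2, and 1 lower, Dlk1, a ligand-like protein without the receptor-activating domain, at -0.36 ± 0.15. Over all genes by their brightest probe set, 144 of 18193 were higher and 146 lower at that level. Tle1 and Dlk1 were named after their values were seen. Tle1 averaged 9.43 ± 0.0090 in induced arrays and 9.16 ± 0.088 in controls (SD, n = 3 each).

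The other receptors and ligands split 3 higher and 2 lower, with a median log2 fold change of 0.014. The brightest were Notch2, at 9.59 in induced arrays and 9.64 in controls, and Jag2, at 8.96 and 8.83. Receptor processing and glycosylation genes were positive in 5 of 12, with a median of -0.053. Psenen, a subunit of the gamma-secretase that cleaves Notch, was at 12.41 in both groups, and the ligand-induced sheddase gene Adam10 at 10.78 in induced arrays and 10.76 in controls. The nuclear complex was positive in 3 of 7, with a median of -0.037, and included Snw1 at 11.79 in induced arrays and 11.84 in controls and the acetyltransferase gene Ep300 at 11.48 and 11.46. Rbpj itself, chosen here for its role, stood at 10.39 ± 0.17 in induced arrays and 10.43 ± 0.074 in controls (SD, n = 3 each). Modulators were positive in 6 of 11, with a median of 0.030, among them the ubiquitin ligase genes Mib1, at 11.16 in induced arrays and 11.23 in controls, and Dtx3, at 11.02 and 11.18. Over all genes by their brightest probe set, 51.1% were positive and the median was 0.0026.

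The other Hes, Hey and feedback targets were positive in 6 of 10, with a median log2 fold change of 0.016. Tle3 stood at 11.75 in induced arrays and 11.83 in controls. Hes6, a Hes relative that counters Hes1, was at 10.42 in induced arrays and 10.44 in controls. The feedback inhibitor gene Nrarp, chosen after its values were seen, differed by -0.069 ± 0.17 (SE) and followed Kdr (r = 0.95 over 6 arrays). Presomitic and segmentation genes were positive in 3 of 10, with a median of -0.093. The Wnt feedback gene Axin2 was at 11.30 in induced arrays and 11.42 in controls, and Dkk1, a secreted Wnt inhibitor, differed by -0.010 ± 0.31 (SE) in log2. Mesp2, a segment-boundary factor downstream of Notch and chosen after its values were seen, had a log2 fold change of -0.45 ± 0.35 (SE). Arterial endothelial genes were positive in 7 of 10, with a median of 0.070, and their brightest were Unc5b, at 10.93 in induced arrays and 10.97 in controls, and Efnb2, at 10.23 and 10.42.

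**Figure D5:**
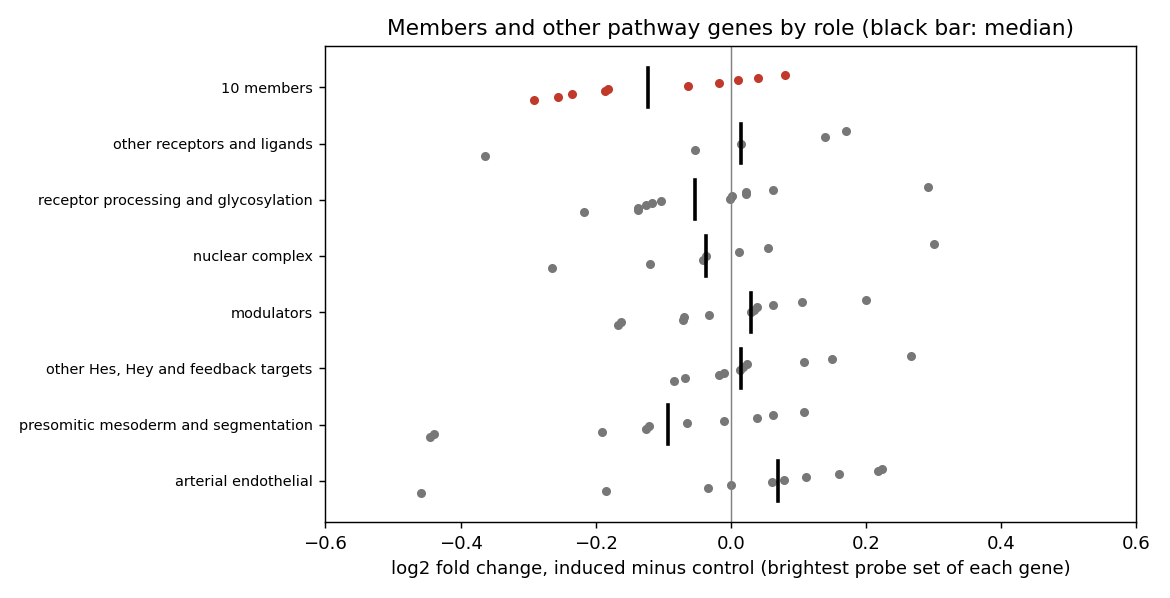
Log2 fold change, induced minus control, of the brightest probe set of each of the 10 members (red) and of the genes of 7 lists of pathway and setting (grey), with the median of each as a black bar. Points of every list lie on both sides of 0, and the medians run from -0.12 for the members to 0.070 for the arterial endothelial genes.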

How the data were processed

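Log2 values of each probe set were deposited by the authors after RMA, per the submitters' processing notes, which give no version. The scanner output was not analysed here, so RMA itself was not varied. Of 45101 probe sets, 64 Affymetrix controls were left out. Names came from the GEO platform annotation (34958 with 1 symbol, 932 with several, 9211 unnamed); 34754 identifiers were found in RefSeq (GRCm38.p6) and 0 symbols changed. Dim probe sets were kept. Groups came from the sample titles.

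Induced and control arrays were set against each other by limma 3.58.1 under R 4.3.3 (lmFit and eBayes, two-sided) over 45037 probe sets, with Benjamini-Hochberg adjustment and a threshold of 0.05. The fit was checked on simulated data with independent noise, equal in both groups and smaller than the control spread of Dll1 or Kdr. That check therefore does not cover the unequal and shared spread of these arrays. The 3 against 3 design has 20 assignments, so an exact permutation test of 1 value cannot go below 0.1. Correlations with Kdr used exact permutation over 720 pairings, two-sided, adjusted over all probe sets and not, as first written down, over the members. Same-numbered arrays deviated together (r = 0.25, 0.17 and 0.23 for numbers 1, 2 and 3, all above 0.1), which is the ground for treating numbers as pairs. Arrays induced 1 and control 2 (0.18) and induced 3 and control 1 (0.21) also did, and the labels name no shared culture or day. Alternatives were another scaling, a level filter, 1 probe set per gene, the replicate block, array weights, Kdr as a covariate and leaving out arrays.

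All members and, in the lists, genes past the threshold, or else the 2 with the highest level, were named; the nearest genes by Pearson r were named for members spanning at least 1 log2 unit. Other genes, cell type markers included, were chosen for their role or after their values were seen. The members and lists were chosen with earlier results of these data known. The number of arrays limits the precision.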

Additional observations from a re-analysis of the deposited data

How the results depend on the processing

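Over 16 settings, 209 of 246 recomputed fold changes of members kept their direction and 37 changed it; none passed the adjusted threshold, and the lowest adjusted p was 0.965. The sign changes were in probe sets whose fold changes lay near 0 or that depended on single arrays, and the cause was not tested. The number of probe sets called was 0 with arrays centred on their median, 0 with the replicate block, 2 with Kdr as a covariate and 0 to 0 with arrays left out, against 1. The replicate block changed no other call. The brighter Dll4 set stood at -0.0064 with centred arrays, -0.0084 after quantile normalization and -0.037 with array weights, against 0.011. With array weights the other Dll4 set was at -0.011 and the dimmer Lfng set at -0.028, and after quantile normalization Hey1 was at 0.021. Leaving out arrays, the log2 fold change ran from -0.64 to -0.012 for the brighter and -0.54 to 0.068 for the dimmer Notch1 set, -0.083 to 0.14 for the brighter Notch3 set, -0.81 to 0.16 for Dll1 and -0.59 to 0.30 for Dll3. It ran from -0.051 to 0.088 and -0.10 to 0.21 for the brighter and dimmer Dll4 sets, -0.47 to -0.012 for the brightest and -0.039 to 0.23 for the dimmest Jag1 set, -0.28 to 0.20 for Hey1, -0.062 to 0.20 for Hey2 and -0.12 to 0.23 for the dimmer Lfng set. Without the 2 arrays farthest in Kdr, the correlation with Kdr turned to -0.71 for the dimmer Notch3 set and -0.48 for the dimmer Dll4 set. Another Kdr probe set was not tried, since the annotation gives 1. Centring shifted the median fold change of all probe sets to -0.015, against 0.0029. Whether dim sets such as Hey2 were above background was not tested.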

Other observations

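Some genes of the pathway lists ran against Kdr over the 6 arrays, the reverse of Dll1, Dll3 and Jag1. They were picked from the 65 measured genes after their values were seen. Bhlhe40, a repressor of the Hes-related family, correlated with Kdr at Pearson r = -0.94, Hes6 at -0.92, Notch2 at -0.92, the somite factor gene Tcf15 at -0.91 and Dtx1, a ubiquitin ligase gene of the pathway, at -0.91, as descriptions over 6 arrays that share 1 main axis of variation (39.5% of the variance). Bhlhe40 averaged 9.45 ± 0.40 in induced arrays and 9.30 ± 0.59 in controls (SD, n = 3 each).

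Of the 10 arterial endothelial genes, Nrp1, Cxcr4 and Sox17 had the largest SDs in both groups and were picked for that after their values were seen. Nrp1, a VEGF co-receptor gene, had an SD of 1.16 in induced arrays and 1.52 in controls (n = 3 each), and Cxcr4, a chemokine receptor gene, 0.60 and 1.57 in the same order. Sox17, an endoderm and arterial factor gene, had 0.65 and 1.29. The other 7 lay at 0.040 to 0.26 in induced arrays and 0.079 to 0.26 in controls. The log2 fold changes of Nrp1 and Cxcr4, 0.22 ± 0.81 and -0.46 ± 0.71 (SE), were smaller than their errors, and both followed Kdr (r = 0.97), as did Sox17 (0.99).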
